A study of Mus musculus with 6 samples.

Results

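The genes described are 35 targets and regulators of p53, the transcription factor that cells stabilise after DNA damage and other stress. They were listed by name as known p53 genes, without Cdkn1a (p21), and were chosen with earlier results of these data known. All 35 were found among the 57132 gene rows of the count table. p53 binds response elements near its target genes and raises transcription of genes that stop division, repair DNA, alter metabolism or prepare cell death. One target, Mdm2, encodes the ligase that marks p53 for degradation, so the pathway restrains itself. In the kidney the pathway is best known from tubule cells after injury, where p53 and p21 are raised.

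Glomeruli, the capillary tufts where the kidney filters blood, came from mice whose labels read DKD, diabetic kidney disease. In the group Cre_negative, 3 samples carried floxed Setdb2 alleles without the Cre recombinase (Cre-/Setdb2fl/fl DKD), and in Cre_positive 3 samples carried the same alleles with it (Cre+/Setdb2fl/fl DKD). Both groups are labelled diabetic, so no library shows the non-diabetic level of any gene. The series' design text names podocytes, whose foot processes wrap those capillaries, as the cells of interest. The Cre driver, the diabetes model, the age, the sex and whether each library is its own mouse are unknown here. The p-values therefore rest on the spread among 3 libraries a group, which could be technical.

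The libraries held 53571438 to 58807042 counts, and values by library follow the order of replicates 1, 2 and 3. Podocyte, endothelial and mesangial markers were present in all 6 libraries, as were proximal tubule markers. The 10 proximal tubule genes summed to 7736 to 12985 CPM (counts scaled by library total times its TMM factor). The 10 podocyte genes summed to 542 to 849 CPM, neither sum being per length. Which cells the p53 transcripts came from was not tested. Setdb2 had 591, 492 and 370 counts in Cre_negative libraries 1 to 3 and 427, 444 and 391 in Cre_positive libraries, log2 fold change -0.12 (standard error 0.18, adjusted p 0.738), so these counts do not check the genotype labels. Cre_positive replicate 2 stood apart with 24 counts of Xist, against 36474 to 47632 in the other libraries. Cre_negative replicate 1 stood apart in proliferation markers, with a summed 246 CPM over 10 genes against 56.5 to 90.0 CPM in the other 5 libraries.

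Most of the p53 genes were lower in the Cre_positive libraries and none was called higher. Of the 35 genes, all of which passed the filter on low counts, 24 fell, 11 did not pass and 0 rose in the quasi-likelihood test of edgeR, taken at 0.05 after Benjamini-Hochberg adjustment. Among all 19927 genes tested, 3.82% were called lower, 3.73% higher and 7.55% in either direction. Since the list was chosen with earlier results of these data known, its shares are set beside those of all genes as a description only. The count of genes higher was also 0 at an unadjusted p under 0.05, in DESeq2 and in limma voom. At least 2-fold lower calls numbered 15 of the 35, against 1.59% of all genes. The median log2 fold change of the 35 genes was -0.70, and that of all genes tested was -0.00089. All 3 Cre_positive libraries lay below all 3 Cre_negative ones for 25 of the 35 genes, where the same held for 14.5% of all genes, and the reverse for 0 of the 35 and 15.2% of all genes. By role, 4 of 7 fell among p53 and its regulators, 3 of 6 among DNA repair genes, 8 of 9 among death receptors and apoptosis genes, 4 of 7 among metabolic and stress genes and 5 of 6 among genes of division and growth arrest. In a bulk sample, fewer cells of a type and less RNA per cell cannot be told apart.

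The count of 24 was 15 without Cre_positive replicate 3, 18 without Cre_positive replicate 1 or 2, 20 without Cre_negative replicate 1 and 16 without the Xist-poor and the proliferation-rich library together. Calls over all genes, in either direction, dropped as well. From 1505 they went to 462 without Cre_positive replicate 3, 700 without Cre_positive replicate 1 and 605 without Cre_positive replicate 2. They were 1143 without Cre_negative replicate 1 and 564 without both libraries that stand apart. Of the 24 genes, 15 were called lower under every one of the 17 other settings and 9 lost the call under some of them. Those 9 were Trp53, Polk, Gadd45a, Zfp365, Fas, Pidd1, Ei24, Sesn2 and Ckap2.

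**Figure D1:**
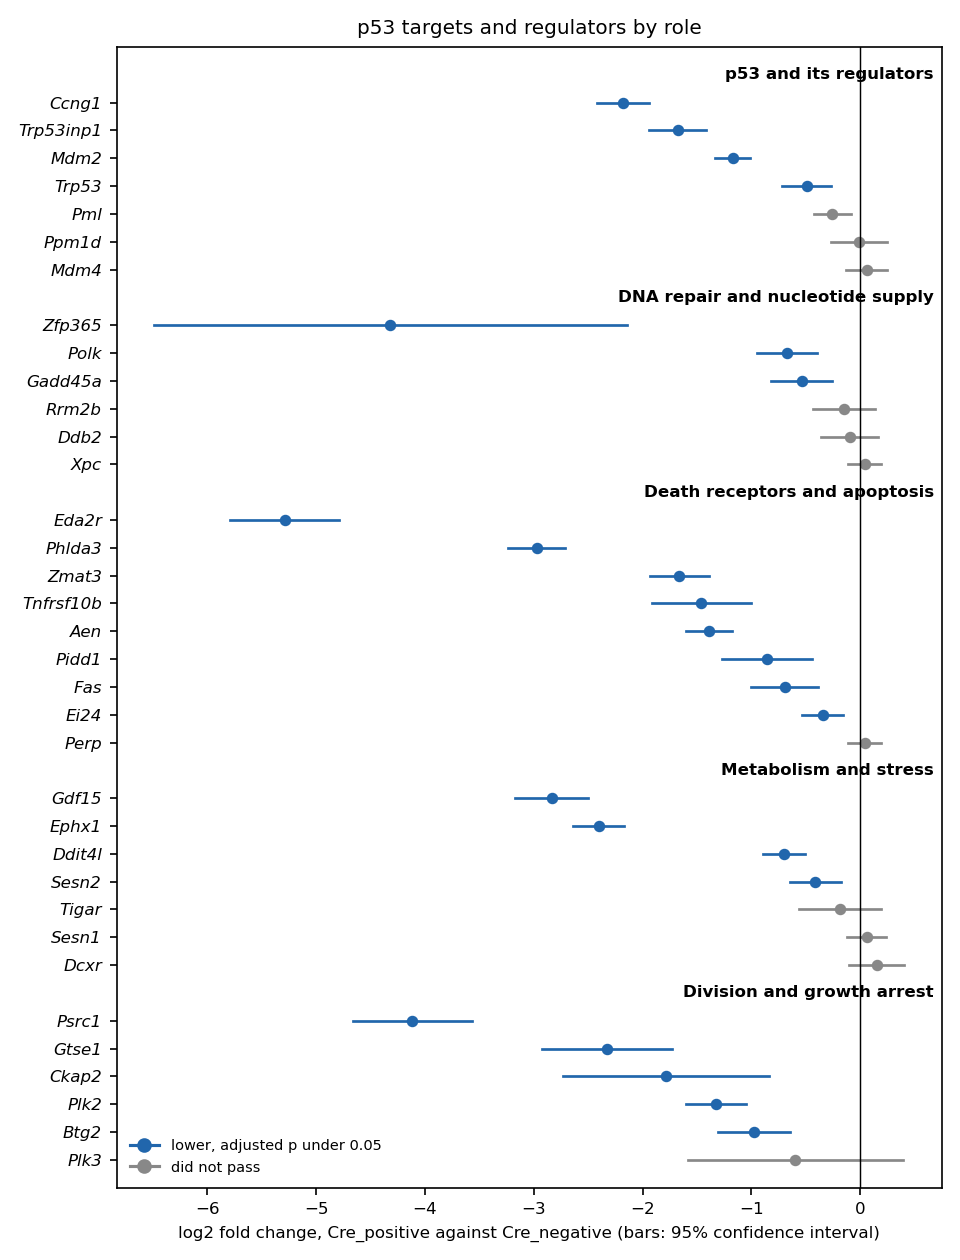
Log2 fold change of each of the 35 genes, Cre_positive against Cre_negative (horizontal axis), with 95% confidence intervals as bars, grouped by role. The 24 genes in blue passed an adjusted p of 0.05 and all lie left of 0. The 11 in grey did not pass.

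**Figure D2:**
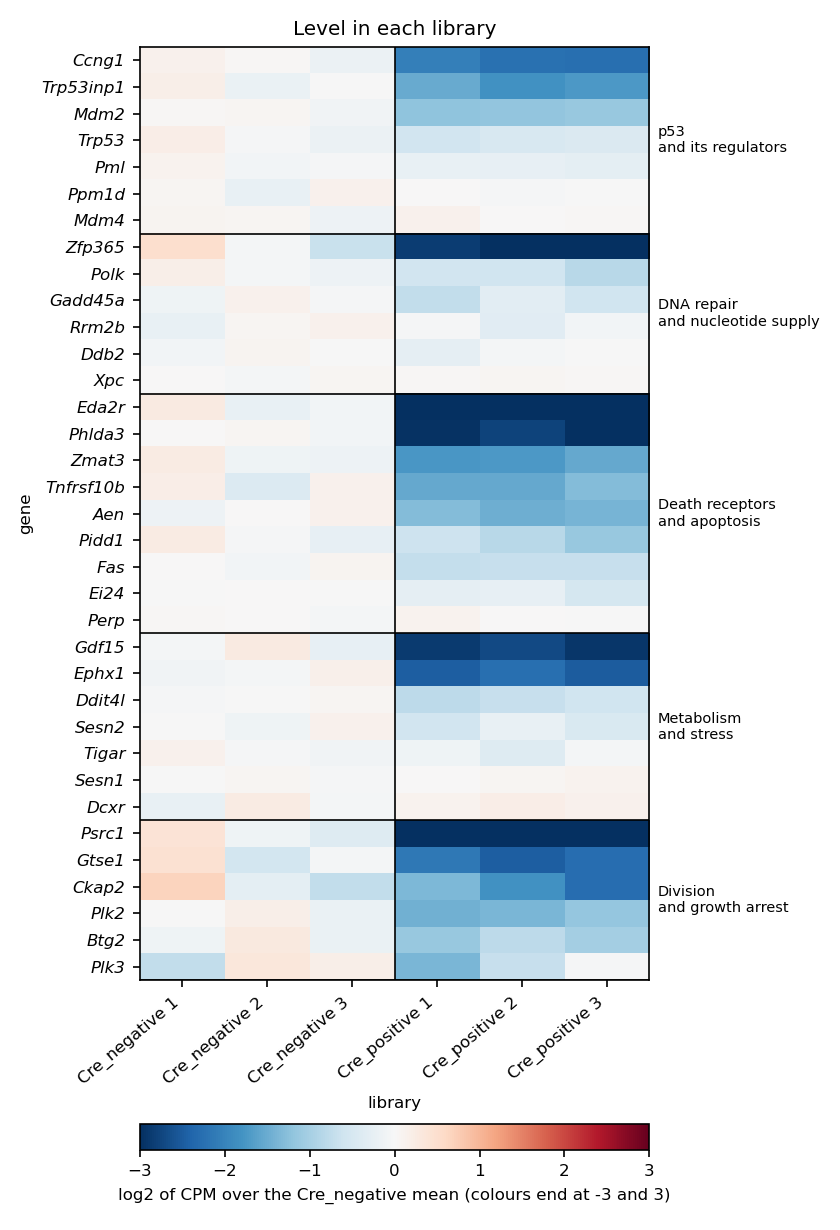
Level of each gene (rows) in each library (columns) as log2 of its CPM over the Cre_negative mean, with 0.05 CPM added to both and colours ending at -3 and 3. The Cre_positive columns are blue for most genes that fell and near white for Mdm4, Ppm1d, Xpc, Ddb2, Rrm2b, Perp, Sesn1, Tigar and Dcxr. Some genes that fell are pale too, such as Ei24 (-0.28, -0.25 and -0.52) and Sesn2 (-0.58, -0.23 and -0.45). In Cre_positive replicate 2, Rrm2b reached -0.35 and Tigar -0.38.

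Cdkn1a, the p21 inhibitor of cyclin-dependent kinases and the best known p53 target, served as the reference. It had 259.8, 279.9 and 244 CPM in the Cre_negative and 15.3, 15.9 and 18.0 CPM in the Cre_positive libraries. The groups were far apart, with log2 fold change -4.00 (standard error 0.096, adjusted p 4.06e-07). Phlda3 and Eda2r stood at ranks 4 and 5 of p over all genes, where Cdkn1a was first, followed by Ephx1 at 6 and Ccng1 at 8.

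Promoter windows from RefSeq (GRCm38.p6, 250 bases before to 50 after a start site) were searched for the consensus half-site of p53, which reads the same on both strands. Entries were matched for 28 of the 35 genes; those not matched were Trp53inp1, Xpc, Ddb2, Rrm2b, Tnfrsf10b, Perp and Zmat3. A half-site stood in a window of 13 of the 28 genes (46.4%), against 2582 of 27025 genes with a window (9.55%) and 8.36% of all 32851 windows. Since the genes were chosen as known p53 targets, this share is a description only. A half-site was found for 10 of 21 genes that fell (47.6%) and 3 of 7 that did not pass (42.9%). A full site, 2 half-sites with at most 13 bases between them, was found in 24 of all windows. Among these were 1 of the 2 windows of Cdkn1a, the one printed below, and none of the 28 genes. The stretches below show half-sites in capitals, with the flanking 30 bases as far as the window reaches, to set genes that fell beside genes that did not. The reference and the genes that fell come first, 5′ to 3′ on the strand of the gene.
Cdkn1a (chr17:29090876-29090967, plus strand): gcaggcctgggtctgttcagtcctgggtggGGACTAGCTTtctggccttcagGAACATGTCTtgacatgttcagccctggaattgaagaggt
Mdm2 (chr10:117710905-117710974, minus strand): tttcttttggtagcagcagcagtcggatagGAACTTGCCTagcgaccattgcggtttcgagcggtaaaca
Ccng1 (chr11:40755432-40755501, minus strand): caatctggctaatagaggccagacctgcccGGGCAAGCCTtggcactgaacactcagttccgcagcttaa
Ddit4l (chr3:137623552-137623621, plus strand): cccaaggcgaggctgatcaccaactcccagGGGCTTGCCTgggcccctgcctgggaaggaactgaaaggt
Polk (chr13:96519379-96519437, minus strand): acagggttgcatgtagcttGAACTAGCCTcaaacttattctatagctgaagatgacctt
Ckap2 (chr8:22185983-22186052, minus strand): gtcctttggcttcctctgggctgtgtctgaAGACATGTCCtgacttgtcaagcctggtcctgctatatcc
The next 3 genes, with half-sites of the same pattern, did not pass the test.
Ppm1d (chr11:85311092-85311161, plus strand): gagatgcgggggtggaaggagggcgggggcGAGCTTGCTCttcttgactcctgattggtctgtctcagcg
Pml (chr9:58249891-58249960, minus strand): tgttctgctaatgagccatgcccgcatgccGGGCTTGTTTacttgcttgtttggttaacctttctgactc
Sesn1 (chr10:41887236-41887305, plus strand): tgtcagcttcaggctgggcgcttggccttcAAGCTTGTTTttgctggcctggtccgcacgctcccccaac
A match is not a binding site, and a window without one says only that these letters are not in it. The response elements by which p53 is known to act on Mdm2 lie in its first intron, outside such a window. The other half-sites were in windows of Trp53, Gadd45a, Ei24, Aen and Gtse1.

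Among p53 and its regulators, Ccng1, Trp53inp1 and Mdm2 fell together with Trp53 itself, while Mdm4, Ppm1d and Pml did not pass. Ccng1, which encodes cyclin G1, a partner of the phosphatase that acts on MDM2, had 844, 800.2 and 689.9 CPM in the Cre_negative and 188, 165 and 161 CPM in the Cre_positive libraries. The lowest Cre_negative library held more than 3 times the highest Cre_positive one. The fold change was -2.18 (standard error 0.11, adjusted p 2.40e-05) on the log2 scale. Trp53inp1, which encodes a nuclear protein that promotes p53 phosphorylation, had 130.3, 101 and 114 CPM in the Cre_negative and 40.5, 32.8 and 34.9 CPM in the Cre_positive libraries. Replicate 1 was the highest of each group and the groups did not overlap, with log2 fold change -1.68 (standard error 0.11, adjusted p 1.57e-04). Mdm2 had 105, 107 and 96.0 CPM in the Cre_negative and 44.4, 45.2 and 46.9 CPM in the Cre_positive libraries. Its spread was small in both groups, the highest library being 1.12 times the lowest in Cre_negative and 1.06 times in Cre_positive. The log2 fold change was -1.17 (standard error 0.071, adjusted p 7.83e-05), that is 2.26-fold lower in Cre_positive.

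Trp53, the p53 gene, fell as well. It had 66.6, 56.7 and 52.0 CPM in the Cre_negative and 39.2, 42.1 and 43.3 CPM in the Cre_positive libraries, with Cre_negative replicate 1 the highest and no overlap. Its log2 fold change of -0.49 (standard error 0.10, adjusted p 0.0216) passed with all libraries, but the call ended when 1 Cre_positive library was left out (adjusted p 0.0870 without replicate 1, 0.0799 without replicate 2 and 0.0770 without replicate 3). Trp53-ps, an annotated pseudogene copy, had 6 to 64 counts, so reads placed there were few beside the 2092 to 4044 of Trp53. RNA level does not measure p53 protein, which is controlled mainly by its degradation.

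Mdm4, which encodes a relative of MDM2 that binds p53 and blocks its activity, did not pass. It had 132, 129 and 111 CPM in the Cre_negative and 137, 124 and 126 CPM in the Cre_positive libraries, and the groups overlapped. The log2 fold change was 0.06 (standard error 0.084, adjusted p 0.736) with a 95% confidence interval of -0.13 to 0.25, which does not reach the fall of Mdm2. Ppm1d, the gene of the WIP1 phosphatase that removes activating phosphates from p53, had 18.6 ± 2.27 against 18.5 ± 0.304 CPM (n = 3, SD) in Cre_negative and Cre_positive libraries, log2 fold change -0.01 (standard error 0.11, adjusted p 0.972) with an interval of -0.27 to 0.25. Both signs depend on single libraries, so neither gene has a direction. Pml, the scaffold of nuclear bodies in which p53 is modified, had 70.0, 61.5 and 63.3 CPM in the Cre_negative and 56.1, 54.5 and 52.6 CPM in the Cre_positive libraries. Its groups did not overlap, but the log2 fold change of -0.26 (standard error 0.075, adjusted p 0.0763) did not pass in edgeR; it passed in DESeq2 (adjusted p = 0.0401).

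**Figure D3:**
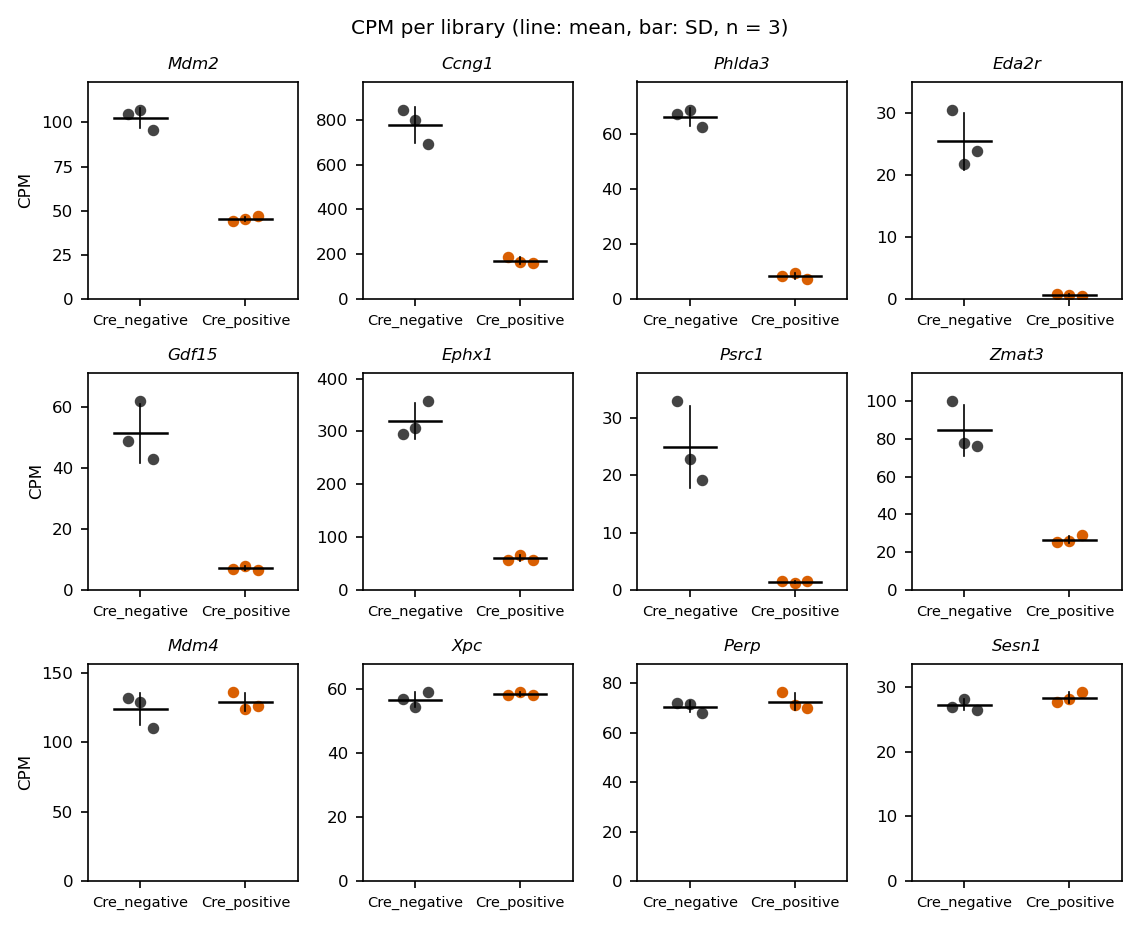
CPM per library (vertical axes, from 0) for 8 genes that fell (upper rows) and 4 that did not pass (lowest row), with the mean as a line and the SD as a bar, n = 3 per group. The groups are apart for Mdm2, Ccng1, Phlda3, Eda2r, Gdf15, Ephx1, Psrc1 and Zmat3 and overlap for Mdm4, Xpc, Perp and Sesn1.

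Death receptors and apoptosis genes fell in 8 of 9 cases, Perp being the ninth. Their median log2 fold change was -1.39. Eda2r, the receptor of ectodysplasin A2 in the tumour necrosis factor receptor family, had 30.5, 21.8 and 23.8 CPM in the Cre_negative and 0.825, 0.597 and 0.522 CPM in the Cre_positive libraries. In counts these were 1852, 1221 and 1342 against 44, 34 and 28. The gene was thus near 0 in every Cre_positive library, and its log2 fold change of -5.29 (standard error 0.22, adjusted p 1.04e-05) was the largest fall among the 35 genes with all libraries in the fit. Eda2r lies on the X chromosome, and the Xist-poor library, at 0.597 CPM, lay between the other Cre_positive libraries.

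Phlda3, which encodes a pleckstrin-homology protein that holds back the kinase AKT, had 67.0, 68.7 and 62.4 CPM in the Cre_negative and 8.44, 9.52 and 7.21 CPM in the Cre_positive libraries. The Cre_negative libraries were within 1.10 times of each other. Its log2 fold change was -2.98 (standard error 0.11, adjusted p 6.03e-06), or 7.87-fold lower. Aen, the gene of a nuclease that promotes apoptosis, had 56.4, 63.6 and 68.0 CPM in the Cre_negative and 25.4, 22.7 and 23.8 CPM in the Cre_positive libraries, log2 fold change -1.39 (standard error 0.093, adjusted p 1.38e-04). Zmat3, the gene of an RNA-binding zinc finger protein that alters splicing, had 100.1, 77.7 and 76.1 CPM in the Cre_negative and 25.4, 25.8 and 29.1 CPM in the Cre_positive libraries, log2 fold change -1.66 (standard error 0.12, adjusted p 2.03e-04). In both genes the groups were well apart, and no library left out ended the call.

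Both receptors of death ligands fell. Tnfrsf10b, the mouse receptor of TRAIL, had 13.2, 8.59 and 12.5 CPM in the Cre_negative and 3.90, 3.91 and 4.64 CPM in the Cre_positive libraries. Cre_negative replicate 2 was the lowest of its group, still above every Cre_positive library, and the log2 fold change was -1.46 (standard error 0.20, adjusted p 0.00447). Fas, the receptor of FAS ligand, went from 10.3 ± 0.616 to 6.38 ± 0.0512 CPM (n = 3, SD), log2 fold change -0.69 (standard error 0.14, adjusted p 0.0187). Its 3 Cre_positive values lay within 1.01 times of each other. The call of Fas ended when 1 Cre_positive library was left out (adjusted p 0.0724, 0.0717 and 0.0839 without replicates 1, 2 and 3), with log2 fold changes of -0.69 to -0.70.

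Pidd1, the scaffold that activates an initiator caspase, went from 14.2 ± 2.504 to 7.84 ± 1.42 CPM (n = 3, SD), log2 fold change -0.86 (standard error 0.18, adjusted p 0.0261). Its call ended without Cre_negative replicate 1 (0.0641) or 2 (0.0603) and without Cre_positive replicate 2 (0.0953) or 3 (0.106), as adjusted p. Ei24, which encodes a membrane protein of the endoplasmic reticulum, went from 170.3 ± 1.69 to 134 ± 13.2 CPM (n = 3, SD), the smallest fall that passed, at -0.34 (standard error 0.082, adjusted p 0.0392). Leaving out any 1 of the 6 libraries ended the call of Ei24, with adjusted p from 0.0559 to 0.137. Perp, a membrane protein of desmosomes that p53 induces in apoptosis, had 72.0, 71.6 and 68.0 CPM in the Cre_negative and 76.4, 71.2 and 69.8 CPM in the Cre_positive libraries. The groups overlapped, and the log2 fold change of 0.04 (standard error 0.068, adjusted p 0.786) had an interval of -0.12 to 0.19.

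Metabolic and stress genes split into 4 that fell and 3 that did not pass, with a median log2 fold change of -0.41. Gdf15, a secreted stress cytokine, had 49.0, 62.1 and 43.2 CPM in the Cre_negative and 7.03, 7.85 and 6.71 CPM in the Cre_positive libraries. Cre_negative replicate 2 was the highest, the Cre_positive libraries were close to each other, and the log2 fold change was -2.84 (standard error 0.15, adjusted p 2.96e-05). Ephx1, the microsomal epoxide hydrolase, had 295.4, 306 and 358 CPM in the Cre_negative and 57.7, 66.6 and 57.0 CPM in the Cre_positive libraries, log2 fold change -2.40 (standard error 0.10, adjusted p 1.05e-05). Here the highest Cre_negative library was replicate 3, and the groups were more than 4 times apart. Ddit4l, a relative of the mTOR inhibitor REDD1, had 37.2, 37.8 and 40.1 CPM in the Cre_negative and 22.1, 23.6 and 25.2 CPM in the Cre_positive libraries. That fall was smaller, at -0.70 (standard error 0.084, adjusted p 0.00247), but the spread within each group was small as well and no library left out ended the call.

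Of the sestrin genes, whose proteins restrain mTORC1 signalling, Sesn2 fell and Sesn1 did not pass. Sesn2 went from 83.3 ± 7.63 to 62.5 ± 7.63 CPM (n = 3, SD), log2 fold change -0.41 (standard error 0.10, adjusted p 0.0474). It lay just inside the threshold and lost the call in limma voom (adjusted p = 0.0521), with robust=FALSE in edgeR (0.0560), with the replicate block (0.0645) and without Cre_negative replicate 1 (0.0857) or 3 (0.0904) or Cre_positive replicate 1 (0.156) or 3 (0.171). Sesn1 had 27.0, 28.1 and 26.5 CPM in the Cre_negative and 27.6, 28.1 and 29.2 CPM in the Cre_positive libraries, with overlap and log2 fold change 0.06 (standard error 0.079, adjusted p 0.713), interval -0.12 to 0.24. The difference between the sestrins was not tested. Dcxr, the L-xylulose reductase, did not pass and had 106, 146 and 119 CPM in the Cre_negative and 132, 143 and 136 CPM in the Cre_positive libraries. Its lowest value was in Cre_negative replicate 1, and the log2 fold change was 0.15 (standard error 0.11, adjusted p 0.477). Tigar, the fructose bisphosphatase that slows glycolysis, had 7.22 ± 0.613 against 6.35 ± 0.719 CPM (n = 3, SD) in Cre_negative and Cre_positive libraries, log2 fold change -0.19 (standard error 0.16, adjusted p 0.558) with an interval of -0.56 to 0.19.

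Genes of division and growth arrest fell in 5 of 6 cases, Plk3 being the sixth, with a median log2 fold change of -1.56. Psrc1, which encodes a microtubule protein of the spindle, had 33.0, 22.8 and 19.1 CPM in the Cre_negative and 1.5, 1.19 and 1.62 CPM in the Cre_positive libraries, log2 fold change -4.12 (standard error 0.24, adjusted p 7.83e-05). Plk2, a polo-like kinase induced by stress, had 38.5, 44.3 and 34.2 CPM in the Cre_negative and 14.3, 15.1 and 17.3 CPM in the Cre_positive libraries, and its fold change was -1.33 (standard error 0.12, adjusted p 6.98e-04) on the log2 scale. Gtse1, whose protein binds microtubules and p53, had 16.5, 8.25 and 11.6 CPM in the Cre_negative and 2.68, 2.12 and 2.42 CPM in the Cre_positive libraries, log2 fold change -2.33 (standard error 0.26, adjusted p 0.00190). In both Psrc1 and Gtse1 the highest library was Cre_negative replicate 1, and even the lowest Cre_negative library stood above all Cre_positive ones.

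Btg2, an antiproliferative partner of the mRNA deadenylase complex, went from 63.3 ± 12.01 to 32.2 ± 3.98 CPM (n = 3, SD), log2 fold change -0.97 (standard error 0.14, adjusted p 0.00687). Ckap2, a spindle protein gene, had 17.0, 8.68 and 6.38 CPM in the Cre_negative and 4.18, 2.98 and 2.14 CPM in the Cre_positive libraries. It was highest in Cre_negative replicate 1, like the proliferation markers, and its log2 fold change of -1.79 (standard error 0.40, adjusted p 0.0401) lost the call without Cre_negative replicate 2 (adjusted p 0.0729) or without Cre_positive replicate 1, 2 or 3 (0.0670, 0.144 and 0.136), and with no filter on low counts (0.0565). Plk3, a second stress-induced polo-like kinase and an immediate-early gene, had 9.91, 21.2 and 18.8 CPM in the Cre_negative and 6.38, 10.3 and 16.3 CPM in the Cre_positive libraries. The values spread 2.14-fold within Cre_negative and 2.56-fold within Cre_positive, and the log2 fold change of -0.60 (standard error 0.41, adjusted p 0.448) had an interval of -1.58 to 0.39, wide enough to hold the fall of Plk2.

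DNA repair genes fell in 3 of 6 cases, with a median log2 fold change of -0.35. Polk, the translesion polymerase kappa, had 26.4, 22.5 and 21.1 CPM in the Cre_negative and 15.6, 15.3 and 13.01 CPM in the Cre_positive libraries, without overlap and with log2 fold change -0.67 (standard error 0.12, adjusted p 0.0146). The call ended without Cre_positive replicate 2 (adjusted p 0.0521) or 3 (0.0713). Gadd45a, a growth arrest and DNA damage gene, had 32.6, 39.0 and 34.9 CPM in the Cre_negative and 21.1, 28.6 and 23.5 CPM in the Cre_positive libraries, log2 fold change -0.54 (standard error 0.12, adjusted p 0.0345). It lost the call without Cre_negative replicate 2 (adjusted p 0.0936) or 3 (0.0533) or Cre_positive replicate 1 (0.113) or 3 (0.137). An annotated gene on the opposite strand, E230016M11Rik, covers 19.1% of the Gadd45a exon length and had 229 to 396 counts; which strand setting the counting used is unknown here. Zfp365, a zinc finger gene of the DNA damage response, was scarce, with 247, 155 and 100 counts in the Cre_negative libraries and 19, 0 and 4 in the Cre_positive ones. Its log2 fold change of -4.32 (standard error 0.92, adjusted p 0.0356) had an interval of -6.49 to -2.15 and lost the call without Cre_negative replicate 1 (adjusted p 0.0863) or 2 (0.0859), without Cre_positive replicate 3 (0.146) and with no filter on low counts (0.0618). With 1 library left out its log2 fold change ranged from -3.72 without Cre_positive replicate 2 to -6.22 without Cre_positive replicate 1.

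Xpc, the damage sensor of nucleotide excision repair, did not pass. It had 56.7, 54.2 and 58.9 CPM in the Cre_negative and 57.9, 58.99 and 57.9 CPM in the Cre_positive libraries, and its log2 fold change of 0.04 (standard error 0.067, adjusted p 0.759) had the narrow interval of -0.11 to 0.19. Ddb2, the sensor of ultraviolet damage, had 14.5, 16.3 and 15.2 CPM in the Cre_negative and 12.8, 14.8 and 15.3 CPM in the Cre_positive libraries, log2 fold change -0.10 (standard error 0.12, adjusted p 0.668) with an interval of -0.36 to 0.16. Acp2, on the opposite strand, overlaps 23.8% of the Ddb2 exon length and had 2796 to 3049 counts against 683 to 911 for Ddb2, so the value of Ddb2 is uncertain. Rrm2b, the ribonucleotide reductase subunit that p53 induces, had 24.2 ± 2.96 against 21.8 ± 2.41 CPM (n = 3, SD) in Cre_negative and Cre_positive libraries, log2 fold change -0.15 (standard error 0.12, adjusted p 0.523) with an interval of -0.43 to 0.13.

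Levels of different genes were compared only per length, as CPM per kilobase of exon (RPKM). In the Cre_negative libraries Ccng1 was the highest of the 35 genes at 222 ± 22.6 RPKM, followed by Ephx1 at 164 ± 17.2 and Dcxr at 108 ± 18.1 (SD, n = 3). In the Cre_positive libraries Dcxr led at 120.0 ± 4.71, then Ccng1 at 48.9 ± 4.10 and Perp at 37.1 ± 1.80 RPKM. Phlda3 went from place 4 to place 18 of 35 and Gdf15 from 7 to 22. The lowest gene was Zfp365 in both groups.

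Within a group the genes did not share 1 order of libraries. Of the 24 genes that fell, 12 were highest in Cre_negative replicate 1, 7 in replicate 2 and 5 in replicate 3. In Cre_positive, 9 were highest in replicate 1, 7 in replicate 2 and 8 in replicate 3. The highest library of a group was a median of 1.28 times the lowest for these 24 genes in Cre_negative and 1.202 times in Cre_positive. The Cre_positive median leaves out Zfp365, which had 0 counts in replicate 2.

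Marker lists of several cell states differed between the groups too. Of 9 markers of injured epithelium 6 fell and 0 rose, and their summed level was 589 to 1141 CPM in Cre_negative and 395 to 447 CPM in Cre_positive libraries. Krt8 and Cd24a made up a mean of 181 and 277 CPM of the Cre_negative sum and 112 and 204 CPM of the Cre_positive sum. Havcr1 went from 275, 43.6 and 19.8 CPM to 0.281, 0.351 and 0.596 CPM (log2 fold change -8.10, adjusted p 0.0481). Krt20 fell too, at -4.69 (adjusted p 0.0182), and Lcn2, at -4.49, did not pass (adjusted p 0.0679). Cldn1, at 0.42, was the 1 marker above 0. Of 9 macrophage markers 2 fell, with sums of 186 to 343 and 169 to 185 CPM. Csf1r, at 0.18, was the 1 macrophage marker above 0. It made up a mean of 80.5 CPM of the Cre_negative sum and 91.0 CPM of the Cre_positive sum. Of 10 proliferation markers 0 passed, with sums of 62.3 to 246 and 56.5 to 81.9 CPM. All 10 lay below 0, with a median log2 fold change of -1.04 and wide standard errors of 0.39 to 0.73. Of 10 podocyte markers 2 rose (542 to 625 against 740 to 849 CPM), of 8 endothelial markers 7 (426 to 462 against 643 to 681 CPM), of 6 mesangial markers 3 (128 to 147 against 202 to 220 CPM), and of 10 proximal tubule markers 5 (7736 to 8929 against 11627 to 12985 CPM). Below 0 were 2 of the proximal tubule markers, neither past the threshold. Slc22a6 stood at -0.71 (adjusted p 0.0553), with all Cre_positive libraries below all Cre_negative ones, and Slc13a3 at -0.17 (adjusted p 0.535). Slc34a1 alone made up a mean of 2900 CPM of the Cre_negative and 4445 CPM of the Cre_positive tubule sum. Cdkn1c, at -0.23, was the 1 podocyte marker below 0. Of 8 lymphocyte markers 0 passed, with sums of 4.56 to 9.21 and 8.78 to 12.2 CPM. Every marker had counts in each library except 1 of the 8 lymphocyte markers. Within Cre_negative, the sums spread 1.94-fold for injured epithelium, 1.84-fold for macrophages and 3.94-fold for proliferation. The 24 genes that fell spread from 1.02-fold (Ei24) to 2.67-fold (Ckap2) there, with Zfp365 at 2.29-fold, Gtse1 at 2.00-fold, Psrc1 at 1.73-fold, Mdm2 at 1.12-fold and Phlda3 at 1.10-fold. Without Cre_negative replicate 1, the library with the highest of these 3 sums, 20 of the 24 genes were called lower, and Zfp365, Pidd1, Ei24 and Sesn2 were not. The part of these cell states in the falls of the p53 genes was not tested.

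**Figure D4:**
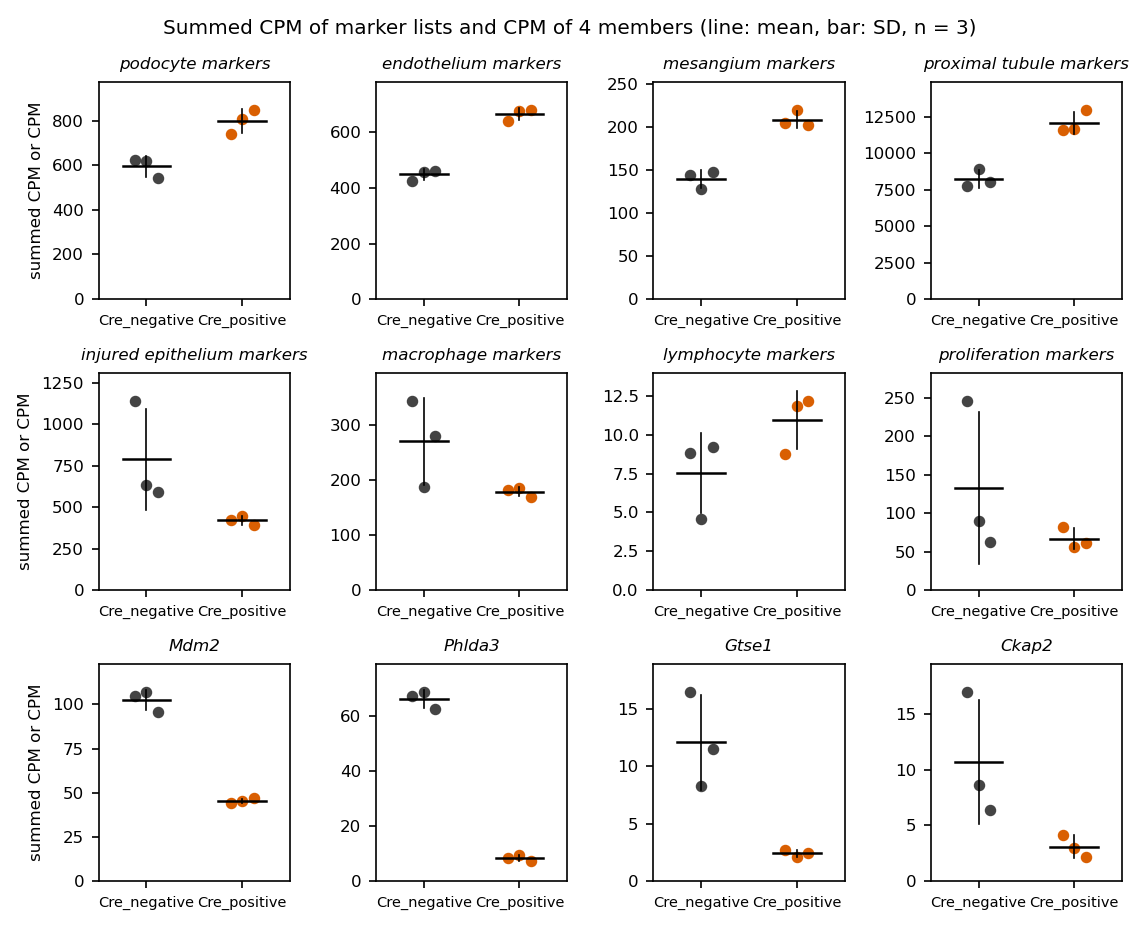
Summed CPM of 8 marker lists and CPM of 4 p53 genes per library (vertical axes, from 0), with the mean as a line and the SD as a bar, n = 3 per group. Cre_negative replicate 1 is the highest library for injured epithelium, macrophage and proliferation markers and for Gtse1 and Ckap2. Within Cre_negative, Gtse1 spread 2.00-fold, Ckap2 2.67-fold, Mdm2 1.12-fold and Phlda3 1.10-fold. The part of these cell states in the falls of the 4 genes was not tested.

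Other p53 targets outside the 35 genes fell in part. Of 20 listed, 19 were tested, 9 fell, 1 rose and 9 did not pass, with a median log2 fold change of -0.54. Of all genes tested, 3.82% were called lower and 3.73% higher. Spata18 was too scarce to test. Besides Cdkn1a, the 3 of smallest p were Pmaip1, the gene of the BH3-only protein NOXA, at -1.56 (standard error 0.15, adjusted p 8.68e-04), the cytokine gene Lif at -3.37 (standard error 0.36, adjusted p 0.00155) and Bbc3, the gene of the BH3-only protein PUMA, at -1.77 (standard error 0.19, adjusted p 0.00158), as log2 fold changes. Lif had 10.98, 5.40 and 5.53 CPM in the Cre_negative and 0.713, 0.860 and 0.540 CPM in the Cre_positive libraries. The single gene that rose, named after its value was seen, was Steap3, a ferrireductase gene, with 16.5, 14.5 and 12.5 CPM in the Cre_negative and 27.0, 27.4 and 22.4 CPM in the Cre_positive libraries and log2 fold change 0.82 (standard error 0.13, adjusted p 0.00869).

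Genes upstream of p53 were 16 kinases, binding partners and p53 relatives. Of these 15 were tested and 0 passed in edgeR's quasi-likelihood test, against 7.55% of all genes in either direction. Among so few genes a count of 0 cannot be told apart from that share. In the same test 2 had an unadjusted p under 0.05, and 0 passed in limma voom and 1 in DESeq2. The median log2 fold change of the 15 genes was 0.05. Chek2, a checkpoint kinase that phosphorylates p53, had 12.9, 8.32 and 8.17 CPM in the Cre_negative and 6.08, 4.93 and 5.63 CPM in the Cre_positive libraries, and its log2 fold change of -0.82 (standard error 0.21, adjusted p 0.0511) lay just outside the threshold. It passed in DESeq2 (adjusted p = 0.00371), with the replicate block (0.0398) and without Cre_negative replicate 3 (0.0376). Atm, the kinase that signals double-strand breaks, stood at 0.34 (standard error 0.14, adjusted p 0.191), Hipk2, a kinase of p53, at 0.27 (standard error 0.12, adjusted p 0.225) and Rpl11, a ribosomal protein that binds MDM2, at -0.17 (standard error 0.091, adjusted p 0.314). Cdkn2a, whose ARF product blocks MDM2, had 0 counts in the Cre_negative libraries and 5, 0 and 4 in the Cre_positive ones and was not tested.

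**Figure D5:**
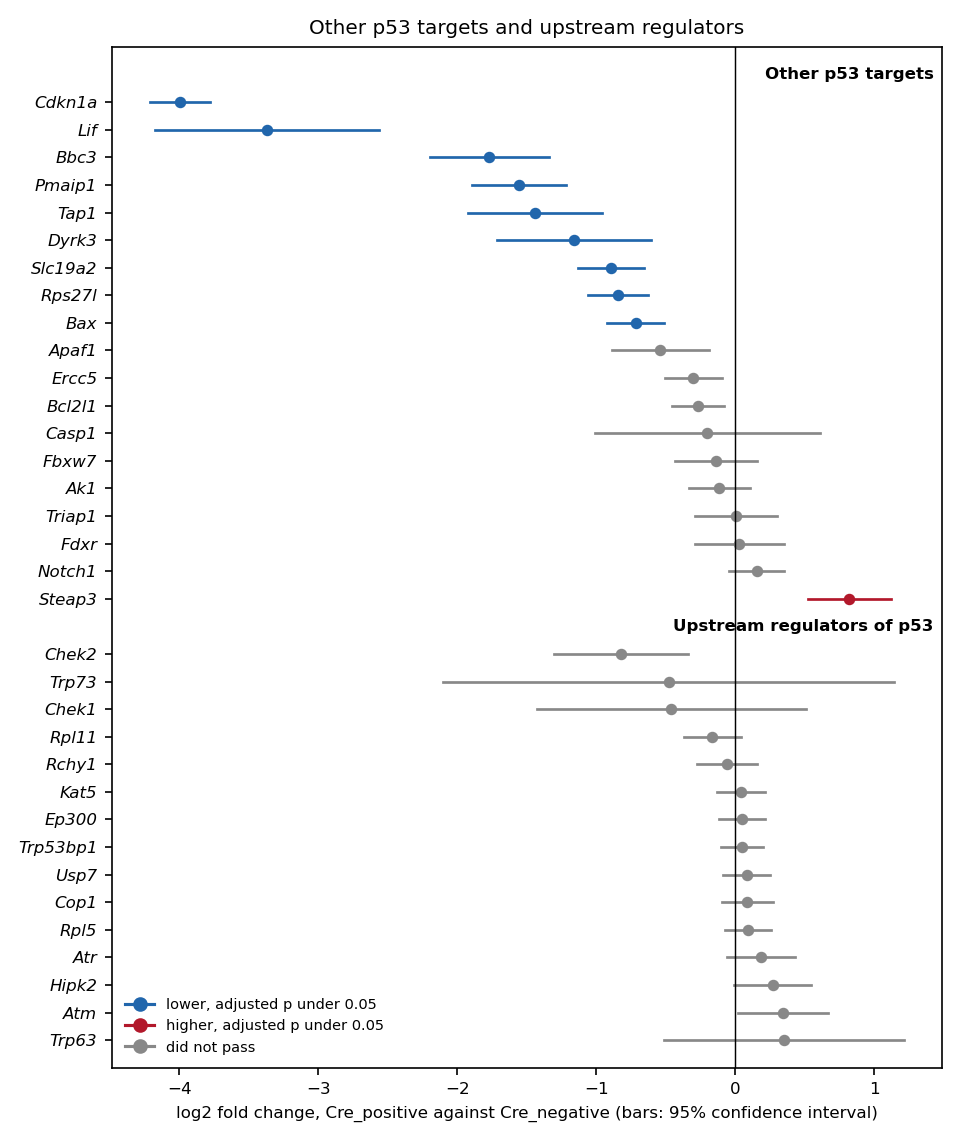
Log2 fold change of 19 other p53 targets and 15 upstream regulators, Cre_positive against Cre_negative (horizontal axis), with 95% confidence intervals as bars. The 9 targets in blue fell, Steap3 in red rose, and none of the upstream regulators passed.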

How the data were processed

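RNA from 6 samples of isolated glomeruli was sequenced as poly(A)-selected, strand-marked libraries, per the labels' protocols. The deposited values are raw counts, 1 table with a whole number per Ensembl gene and sample. The submitters' processing notes list GRCm39 and the tools HISAT2, fastp, edgeR and StringTie, without versions or order. Annotation, strand setting and treatment of multiply mapped reads are unknown here, so overlapping genes and copies are uncertain.

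Symbols were matched for 51880 of 57132 rows. The analysis ran in edgeR 4.0.16 under R 4.3.3. Low genes were removed by filterByExpr, libraries scaled by TMM (factors 0.979 to 1.03), and groups compared by quasi-likelihood F-tests with robust=TRUE. Benjamini-Hochberg adjustment ran over 19927 genes, with calls at 0.05. CPM values use the TMM factors. Standard errors are the log2 fold change over the square root of F. The common biological coefficient of variation was 21.5%. Total counts were 53571438 to 58807042. Replicate pairs differed beyond sampling noise (chi-square per degree of freedom at least 20.6), and this difference between replicates limits the precision beyond counting error.

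The members, lists and tests were chosen with earlier results of these data known. All 35 members are accounted for, with library values for those of smallest p and the one of highest mean CPM (not per length) that did not pass in each role, and the 4 of smallest p in each other list. Other settings were DESeq2 size factors or upper-quartile factors, DESeq2 1.42.0, limma 3.58.1 voom, robust=FALSE, other filters and thresholds, a replicate block and each library left out. Leaving out both libraries that stand apart was chosen after seeing the data. Exon lengths, overlaps and promoters came from GRCm38 references, another build than the notes name, used for names, lengths, overlaps and the printed sequences only.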

Additional observations from a re-analysis of the deposited data

How the results depend on the processing

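The count of p53 genes called lower was 24 with all libraries and 22 to 25 under the other scalings, tests and filters and at an adjusted p of 0.10. It was 15 at an adjusted p of 0.01. It ranged from 15 to 21 with 1 library left out and was 16 without Cre_negative replicate 1 and Cre_positive replicate 2. The count of those genes called higher was 0 under each of these settings. The other p53 targets called lower ranged from 8 to 12. Over all genes, 1505 were called, against 2697 in DESeq2, 414 at an adjusted p of 0.01, 2562 at 0.10, 564 without the pair of libraries, and 462 to 2039 with 1 library left out. The cause was not tested. Of the upstream regulators, Chek2 alone was called, giving 1 in place of 0 with DESeq2, no filter on low counts, at least 1 CPM in 3 libraries, the replicate block and an adjusted p of 0.10, and 0 to 1 with 1 library left out. Signs changed near 0 for 3 genes that did not pass. With 1 library left out, the log2 fold change of Mdm4 ranged from -0.016 to 0.107, that of Perp from -0.00051 to 0.066 and that of Ppm1d from -0.110 to 0.056. That of Ppm1d was 0.020 in limma voom and 0.035 without the pair.

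With the replicate block, 23 p53 genes were called lower and 1541 genes in all. Deviations from the group means correlated at 0.0547, 0.0551 and 0.0173 for replicates 1, 2 and 3, each below 0.1, so the numbers were not taken to pair the samples. Each library correlated best with its own number, as a hint from the data only. Zfp365 had 0 to 19 counts in the Cre_positive libraries, so its fold change is limited by depth.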
